A study of Mus musculus with 16 samples.

Results

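The genes described here are 9 enzymes of the urea cycle and of amino acid breakdown in the liver, Cps1, Otc, Ass1, Asl, Arg1, Hal, Hpd, Tat and Gls2. They were taken as a named list, drawn up with earlier results of these data known, and every array probe that the platform annotation assigns to one of these symbols was taken. Of the 9 genes 8 had a probe, out of 16593 genes with a probe in the whole series, and 7 were measured well enough to be tested. Gls2, the liver glutaminase, had no probe under that annotation, and the single Tat probe was detected in 1 of 16 arrays.

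RNA was prepared from the livers of male C57Bl/6Hsd mice aged 10 months, 1 mouse per array, and 1 µg of total RNA per mouse was labelled for Illumina BeadChips. The 4 groups held 4 mice each. They were SHP-/- mice on western diet, wild type mice on western diet, SHP-/- mice on chow and wild type mice on chow. Each diet was given for 6 months from the age of 4 months, and all livers were taken after a night without food. SHP, the product of Nr0b2, is a nuclear receptor that lacks a DNA-binding domain and represses other transcription factors. How the SHP-/- allele was made, and whether litters or cages were shared, is not given in the sources used here.

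The urea cycle turns ammonia, released when amino acids are broken down, into urea. Its first steps run in the mitochondria and its later steps in the cytosol of hepatocytes, chiefly those near the portal vein, which also carry much of the machinery for histidine, tyrosine and glutamine breakdown. In fasting, glucagon and glucocorticoids are known to raise many of these genes, through factors that include C/EBP proteins. The urea cycle members act in the order Cps1, Otc, Ass1, Asl and Arg1, while Hal opens the breakdown of histidine, Tat and Hpd are the first steps of tyrosine breakdown and Gls2 releases ammonia from glutamine.

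The raw signal averaged 282 to 358 per array in knockout and 346 to 384 in wild type on western diet, and 264 to 327 in knockout and 262 to 354 in wild type on chow. The share of probes detected was 45.0 to 47.3% in knockout and 48.8 to 51.1% in wild type on western diet, and 44.8 to 46.9% in knockout and 43.6 to 46.6% in wild type on chow, so the wild type western arrays lay above the other 3 groups. The precision is limited by the number of arrays. The single Nr0b2 probe was detected in 0 of 16 arrays and its raw signal lay between 47.1 and 59.7, so it checks neither the loss of SHP nor the labels. Of the 10 hepatocyte genes used to check the tissue, Apoa1, Ttr, Trf, Serpina1a, Ambp, Ahsg and Hnf4a were detected in all 16 arrays. The probes of 2 other abundant hepatocyte transcripts were detected in fewer, Alb in 8 arrays and Fgb in 0, and Apob had no probe. A probe without signal on this platform therefore does not show that its transcript was missing, which holds for Tat as well. Bulk RNA cannot tell fewer cells of a type from less RNA per cell, and this applies to every difference below.

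Promoter sequence of assembly GRCm38.p6 from RefSeq, 250 bases before to 50 bases after the start site, was at hand for 5 of the 9 members (Otc, Ass1, Hal, Tat and Hpd). Those of Hpd and Hal are shown because Hal was lower on western diet in both genotypes, whereas the diet effect on Hpd differed between them. Capitals mark matches to TTNNGNAA, a core motif of C/EBP proteins, searched on both strands. The Hpd promoter lies at chr5:123182674-123182973 on the minus strand and the Hal promoter at chr10:93488518-93488817 on the plus strand.
Hpd: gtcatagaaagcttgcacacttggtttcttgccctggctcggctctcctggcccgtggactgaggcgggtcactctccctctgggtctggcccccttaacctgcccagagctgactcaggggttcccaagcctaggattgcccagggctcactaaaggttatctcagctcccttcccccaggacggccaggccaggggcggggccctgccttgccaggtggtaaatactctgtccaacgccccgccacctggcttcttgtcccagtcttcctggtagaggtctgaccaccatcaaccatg
Hal: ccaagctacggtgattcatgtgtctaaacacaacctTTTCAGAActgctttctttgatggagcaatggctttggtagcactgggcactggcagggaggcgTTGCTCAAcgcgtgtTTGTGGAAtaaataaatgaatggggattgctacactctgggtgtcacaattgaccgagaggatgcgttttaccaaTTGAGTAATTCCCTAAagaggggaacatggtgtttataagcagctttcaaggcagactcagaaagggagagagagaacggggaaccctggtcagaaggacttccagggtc
The Hal window held 5 matches, whose first bases lie at -214, -150, -135, -60 and -52 relative to the start site, and the last 2 of these adjoin. The Hpd and Ass1 windows held 0, the Otc window held 2 and the Tat window 1. Of all 32851 promoter windows of this length 40.7% held at least 1 match, so its presence is common. AGGTCA, the core of many nuclear receptor sites, TGACG of cAMP response elements and TGTTCT of glucocorticoid response elements occur in 16.3%, 20.8% and 19% of the windows and in 0 of these 5. A match is a description of the letters only, and a missing match says nothing about a factor.

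Levels below are log2 normalized signals, and differences are log2 differences ± SE from 1 limma fit over all 16 arrays with 4 mice per group. A gene passed at an adjusted p below 0.05 over the 9095 genes tested (limma, Benjamini-Hochberg, two-sided). Comparisons that use the same group share its 4 arrays and are not independent of each other. Where groups are said not to overlap, this only describes the values. The share of all genes without overlap is given for the genotypes on chow alone, at 6.52%. In the other pairwise comparisons more genes passed and that share is not given. A lack of overlap there does not show how rare it is. Levels are compared within a gene and not between probes of different genes. Among the members the spread within groups was smallest for Arg1, with a pooled SD of 0.14, and largest for Asl and Hal, at 0.41 and 0.36, against a median of 0.20 over all genes tested.

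In wild type livers most of these genes were lower on western diet. Compared with chow, 6 of the 7 tested members fell and 0 rose, where 29.6% of all genes passed, 14.1% lower and 15.5% higher. Their median difference was -0.66, and that of all genes was -0.03. In knockout livers 2 of 7 members, Arg1 and Hal, were lower on western diet than on chow, where 7.88% of all genes passed, 4.52% higher and 3.36% lower. The median difference of the members was -0.41 in knockout, against -0.01 for all genes. The number of members that passed in knockout was 1 with median scaling in place of quantile normalization, which lost Arg1 (-0.43, adjusted p = 0.0794 by limma), and 3 without knockout western replicate 3, which added Cps1 (-0.57, adjusted p = 0.0208 by limma).

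Between genotypes on western diet, 2 of 7 members passed, in opposite directions: Hpd was higher and Arg1 lower in knockout, where 19.8% of all genes passed and 8.82% passed as higher. On chow 0 of 7 passed in limma, where 0.836% of all genes passed. At an unadjusted p below 0.05 there were 2, Arg1 and Hpd, and both had lower means in knockout. The test of whether the diet effect differed between genotypes was passed by 1 of 7 members, Hpd, in the positive direction, where 7.05% of all genes passed, 2.29% positive and 4.76% negative. A passed test in wild type beside a missed one in knockout is therefore shown to differ between genotypes for Hpd alone among the 7.

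**Figure D1:**
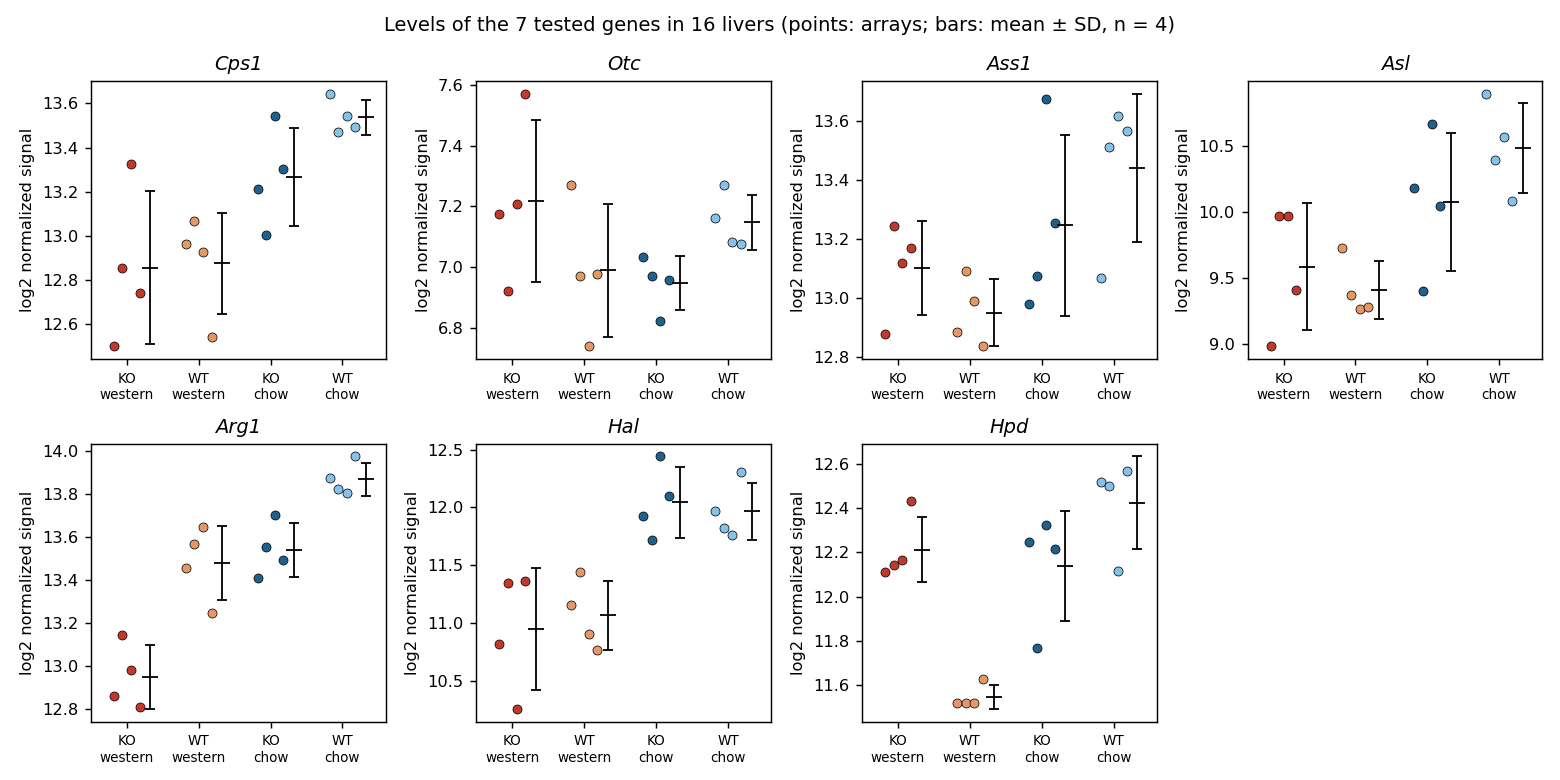
Log2 normalized signal of the 7 tested members in each of the 16 livers, with 4 arrays per group as points and the mean ± SD (n = 4) as bars, each gene on its own axis. Hpd was lowest in the 4 wild type western arrays, at 11.52 to 11.63, while Arg1 was lowest in the 4 knockout western arrays, at 12.81 to 13.14.

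Cps1 makes carbamoyl phosphate from ammonia in the mitochondria and is the entry step of the cycle. In knockout it stood at 12.50, 12.85, 13.33 and 12.74 on western diet and at 13.21, 13.01, 13.54 and 13.30 on chow. In wild type it stood at 12.96, 13.07, 12.93 and 12.54 on western diet and at 13.64, 13.47, 13.54 and 13.49 on chow. All 4 wild type western livers lay below all 4 wild type chow livers, whereas the knockout diet groups overlapped through knockout western replicate 3. The fall in wild type was 1.58-fold (-0.66 ± 0.15, adjusted p = 0.00272 by limma). The knockout difference was -0.41 ± 0.15 and did not pass (adjusted p = 0.102 by limma). Its interval of -0.73 to -0.09 includes the wild type value, and the difference between the diet effects was 0.25 ± 0.21 (adjusted p = 0.551 by limma). A second Cps1 probe, detected in all 16 arrays, gave -0.73 in wild type and -0.50 in knockout. Knockout and wild type differed by -0.02 ± 0.15 on western diet and by -0.27 ± 0.15 on chow, neither of which passed.

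Otc joins carbamoyl phosphate to ornithine, the second mitochondrial step, and was the one tested member that passed in no comparison. Its level was 7.17, 6.92, 7.21 and 7.57 in knockout and 7.27, 6.97, 6.74 and 6.98 in wild type on western diet, and the groups overlapped. On chow it was 7.03, 6.97, 6.82 and 6.96 in knockout and 7.16, 7.27, 7.08 and 7.08 in wild type. On chow all 4 knockout values were below all 4 wild type values, a lack of overlap seen in 6.52% of all genes, and the difference of -0.20 ± 0.13 did not pass (adjusted p = 0.647 by limma). The diet difference was 0.27 ± 0.13 in knockout and -0.16 ± 0.13 in wild type (adjusted p = 0.215 and 0.398 by limma), and the difference between them was 0.43 ± 0.19 (adjusted p = 0.185). The interval of that last value ran from 0.04 to 0.82. A second Otc probe was detected in 0 arrays and gives no value. The Otc values thus rest on 1 probe, detected in all 16 arrays with a raw signal of 137.4 to 230.3.

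Ass1 condenses citrulline with aspartate in the cytosol. It stood at 12.88, 13.25, 13.12 and 13.17 in knockout and 12.88, 13.09, 12.99 and 12.84 in wild type on western diet. The chow values were 12.98, 13.08, 13.68 and 13.26 in knockout and 13.07, 13.51, 13.62 and 13.57 in wild type. Wild type chow replicate 1, at 13.07, was within the range of the wild type western livers, so those groups overlapped. Ass1 fell 1.41-fold on western diet in wild type (-0.49 ± 0.14, adjusted p = 0.0140 by limma). In knockout the same difference was -0.14 ± 0.14 (adjusted p = 0.593), and the difference between the diet effects was 0.35 ± 0.20 (adjusted p = 0.339, both limma). The genotypes differed by 0.15 ± 0.14 on western diet and by -0.20 ± 0.14 on chow, and neither passed.

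Asl splits argininosuccinate into arginine and fumarate. Its level was 8.98, 9.97, 9.97 and 9.41 in knockout and 9.73, 9.37, 9.26 and 9.28 in wild type on western diet. On chow it was 10.18, 9.40, 10.67 and 10.05 in knockout and 10.90, 10.39, 10.57 and 10.08 in wild type. The wild type diet groups did not overlap, and the knockout diet groups did, since knockout chow replicate 2 lay at 9.40. Asl fell 2.11-fold in wild type on western diet (-1.07 ± 0.24, adjusted p = 0.00218 by limma), which left 0.88% of all genes with a lower value. In knockout the difference was -0.49 ± 0.24 (adjusted p = 0.218 by limma) with an interval of -0.99 to 0.01. The diet effects differed by 0.59 ± 0.34 (adjusted p = 0.335), and the interval of -0.12 to 1.29 leaves both an equal effect and a much smaller one in knockout within reach. The second Asl probe, detected in all 16 arrays, gave -1.24 in wild type and -0.58 in knockout.

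Arg1 cleaves arginine into urea and ornithine, the last step of the cycle, and it was the one member that was lower on western diet in both genotypes and lower in knockout on western diet. On western diet it stood at 12.86, 13.14, 12.98 and 12.81 in knockout and at 13.45, 13.57, 13.64 and 13.25 in wild type. The chow values were 13.41, 13.55, 13.70 and 13.49 in knockout and 13.87, 13.82, 13.80 and 13.97 in wild type. In each of the 4 pairwise comparisons the groups did not overlap. Between genotypes on chow this was so for 6.52% of all genes. For the other comparisons, where more genes passed, the share is not given. The knockout western group was the lowest and the wild type chow group the highest of the 4. The order of the means was 12.95 ± 0.15 in knockout western, 13.48 ± 0.17 in wild type western, 13.54 ± 0.12 in knockout chow and 13.87 ± 0.08 in wild type chow (SD, n = 4 each), of which the middle pair differ by less than their SDs.

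The fall of Arg1 in knockout on western diet was 1.44-fold relative to wild type (-0.53 ± 0.10, adjusted p = 0.00119 by limma). On chow the difference was -0.33 ± 0.10 and did not pass (adjusted p = 0.176 by limma), with an interval of -0.55 to -0.11. On western diet Arg1 fell in knockout (-0.59 ± 0.10, adjusted p = 0.00262) and in wild type (-0.39 ± 0.10, adjusted p = 0.00806, both limma). The diet effects were not shown to differ (-0.20 ± 0.15, adjusted p = 0.469 by limma).

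Hal, histidine ammonia-lyase, removes ammonia from histidine in the first step of its breakdown. Its level was 10.82, 11.35, 10.25 and 11.36 in knockout and 11.15, 11.44, 10.90 and 10.76 in wild type on western diet. On chow it was 11.93, 11.71, 12.44 and 12.10 in knockout and 11.97, 11.82, 11.76 and 12.31 in wild type. Within each genotype every western value was below every chow value, and within each diet the genotypes overlapped. Hal fell 2.14-fold in knockout (-1.10 ± 0.21, adjusted p = 0.00511) and 1.87-fold in wild type (-0.90 ± 0.21, adjusted p = 0.00356, both limma). The knockout change was among the largest falls of that comparison, with 0.242% of all genes lower. The diet effects differed by -0.20 ± 0.30, with an interval of -0.83 to 0.43, and the genotypes by -0.12 ± 0.21 on western diet and 0.08 ± 0.21 on chow, none of which passed.

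Hpd, which converts 4-hydroxyphenylpyruvate to homogentisate in tyrosine breakdown, was the member whose response to diet depended on genotype. On western diet it stood at 12.11, 12.14, 12.17 and 12.43 in knockout and at 11.52, 11.52, 11.52 and 11.63 in wild type. On chow it stood at 12.25, 11.77, 12.32 and 12.21 in knockout and at 12.52, 12.50, 12.11 and 12.57 in wild type. The 4 wild type western livers lay below the 12 others, which overlapped each other. Hpd was 1.59-fold higher in knockout than in wild type on western diet (0.67 ± 0.12, adjusted p = 0.000570), and it fell 1.84-fold with diet in wild type (-0.88 ± 0.12, adjusted p = 2.60e-05, both limma).

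In knockout the diet difference of Hpd was 0.07 ± 0.12, with an interval of -0.18 to 0.33 and an adjusted p of 0.758 by limma. Subtracting the wild type diet effect from that in knockout gave 0.95 ± 0.17 (interval 0.60 to 1.31, adjusted p = 0.00213 by limma), and 99.1% of all genes had a lower value. On chow the knockout mean was lower, by -0.29 ± 0.12, and did not pass (adjusted p = 0.372 by limma). Tat, the aminotransferase that precedes Hpd, had a raw signal of 45.8 to 74.2 over the 16 arrays and was detected in knockout chow replicate 3 alone, with a detection p of 0.0238. It was not well above background in any group, and no level or difference is given for it.

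**Figure D2:**
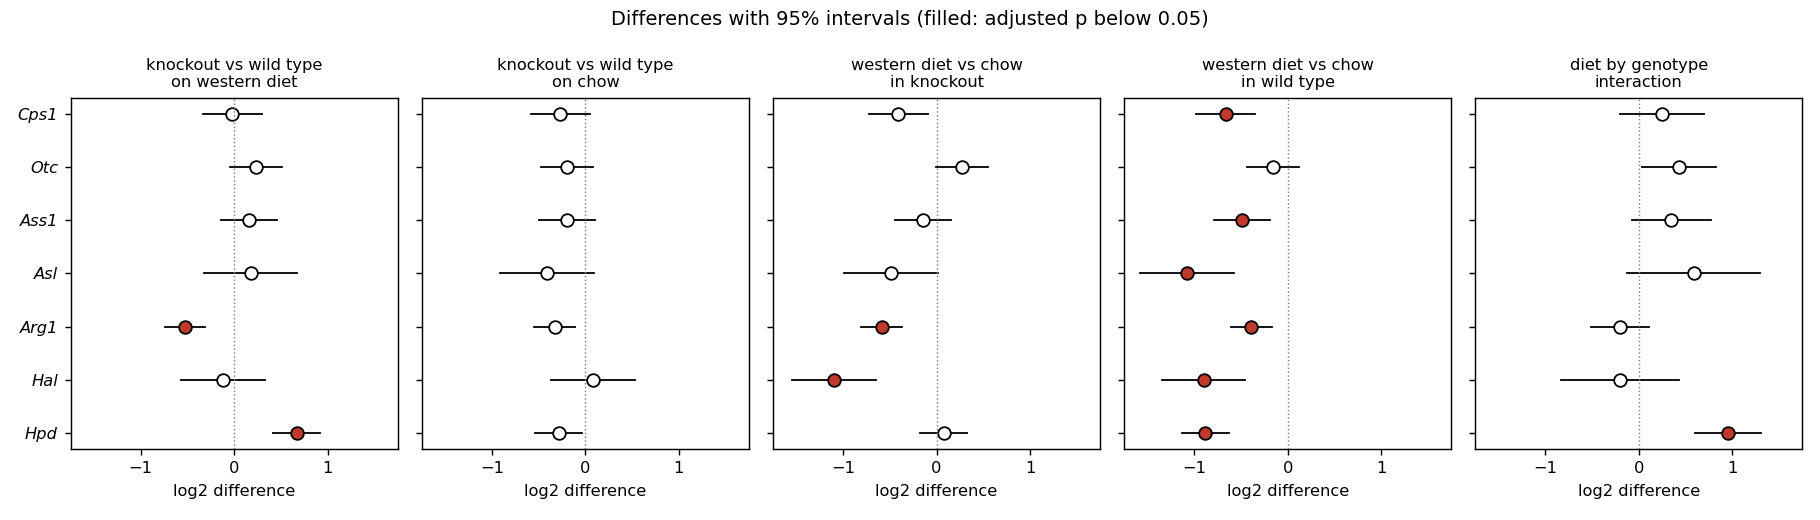
Log2 difference of each tested member in the 5 comparisons, with its 95% interval from the limma fit (4 arrays per group) and filled points for an adjusted p below 0.05. In the panel for western diet against chow in wild type 6 of the 7 points are filled and lie below 0, and in the interaction panel Hpd alone is filled, at 0.95.

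The members lay at different distances from each other over the 16 livers, by a measure that grows with the size of a gene's changes. After each gene was centred on its own mean, the closest pair was Cps1 and Ass1, with a root mean square difference of 0.25 on the log2 scale, followed by Cps1 and Arg1 at 0.25. The most distant pair was Otc and Hal, at 0.65, whose ranges over the 16 arrays were 0.83 and 2.19. These are descriptions over 16 arrays that share their groups. Knockout chow replicate 3 was the highest of its group in 6 of the 7 members and replicate 2 the lowest in 4. Knockout western replicate 1 and wild type western replicate 4 were the lowest of their groups in 4 members each.

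By the same measure the tested genes outside the members most like Hpd were Klkb1, which encodes plasma prekallikrein made by the liver (0.13), and Aspdh (0.16). Klkb1 differed by 0.44 ± 0.11 between knockout and wild type on western diet, and by 0.01 ± 0.11 in knockout and -0.78 ± 0.11 in wild type between western diet and chow. Aspdh gave 0.51 ± 0.08 for the genotypes on western diet, and -0.26 ± 0.08 in knockout and -0.95 ± 0.08 in wild type for diet. The other nearest genes were Ogfrl1 and Dyrk2 for Cps1 (0.17 and 0.20), Eif1b and Ubox5 for Ass1 (both 0.16) and Spin1 and Mief1 for Asl (0.26 and 0.32). For Arg1 they were Sfxn1, a mitochondrial serine carrier, and Mtfr1l (both 0.17), and for Hal they were Arrdc4 and Igfbp2, an insulin-like growth factor binding protein (0.30 and 0.31).

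Around the members, 74 other genes of the urea cycle and of amino acid breakdown were listed, with earlier results of these data known. Of these, 55 were tested. In knockout on western diet 18 of these 55 were higher than in wild type and 1 was lower, where 8.82% of all genes passed as higher, with a median of 0.26 against 0.03 for all genes. With median scaling this became 6 higher and 1 lower. The diet comparison in wild type gave 7 higher and 14 lower, where 15.5% of all genes were higher and 14.1% lower, with a median of -0.08, and with median scaling 8 higher and 5 lower. All other alternatives gave 13 to 20 higher for the genotypes on western diet and 12 to 15 lower for diet in wild type. Of 77 changes that the naming rule picked from the pathway lists, 34 passed under every alternative, 43 were lost under at least 1, and 0 reversed. On chow 0 of 55 passed between genotypes by limma, and 6 had an unadjusted p below 0.05.

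In knockout the diet comparison gave 7 higher and 1 lower of the 55, where 4.52% of all genes were higher and 3.36% lower. The count that passed was 2 without knockout chow replicate 2, 5 without knockout chow replicate 1 or knockout western replicate 2, and 4 without knockout western replicate 4. The interaction was passed by 6 of the 55, of which 5 were positive, where 7.05% of all genes passed. It was passed by 1 with median scaling and by 3 without wild type chow replicate 4, knockout chow replicate 1, wild type western replicate 3 or knockout western replicate 4.

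**Figure D3:**
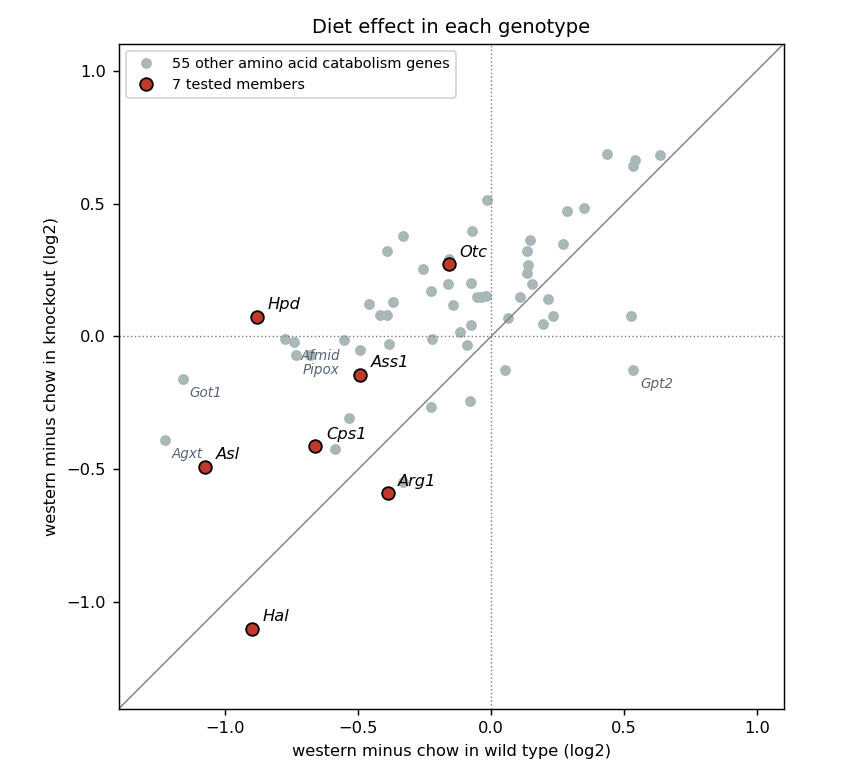
Log2 difference of western diet minus chow in knockout (vertical) against the same in wild type (horizontal) for the 7 tested members in red and 55 other genes of amino acid breakdown in grey; the diagonal marks equal differences. Hpd lies at -0.88 in wild type and 0.07 in knockout, well above the diagonal, and Hal and Arg1 lie below it. Each point is a difference of group means of 4 arrays.

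Within the urea cycle itself, 3 of 6 further genes were tested. For the counts of this and the next lists, 8.82% of all genes were higher in knockout on western diet. With diet in wild type 15.5% were higher and 14.1% lower. Slc25a13, the mitochondrial aspartate-glutamate carrier citrin that supplies aspartate to Ass1, was 1.97-fold higher in knockout than in wild type on western diet (0.98 ± 0.16, adjusted p = 0.000215 by limma). Slc25a15, the ornithine carrier of the mitochondrial membrane, fell 1.47-fold on western diet in wild type (-0.55 ± 0.16, adjusted p = 0.0151 by limma), a call lost by median scaling or by leaving out wild type western replicate 3.

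Among 8 tested genes of glutamine, glutamate and transamination, 3 were higher in knockout on western diet and 0 lower. Got1, the cytosolic aspartate aminotransferase, was 1.70-fold higher there (0.77 ± 0.22) and fell 2.23-fold with diet in wild type (-1.16 ± 0.22). Glul, glutamine synthetase, which takes up the ammonia left over by the urea cycle in hepatocytes near the central vein, was 1.51-fold higher in knockout on western diet (0.59 ± 0.16) and rose 1.56-fold with diet in knockout (0.64 ± 0.16). With diet in wild type 3 genes of this list rose and 2 fell. Gpt2, the mitochondrial alanine aminotransferase, was among those that rose (0.53 ± 0.14). It alone of the list passed the interaction, in the negative direction (-0.66 ± 0.19, adjusted p = 0.0450 by limma). That call was lost under 16 of the alternatives. The Got1 and Glul differences between genotypes on western diet were lost with median scaling, and that of Got1 also without wild type or knockout western replicate 4. Both tested genes of histidine breakdown after Hal passed in no comparison.

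In phenylalanine and tyrosine breakdown 1 of 4 tested genes was higher in knockout on western diet and 2 were lower with diet in wild type. Pcbd1, which recycles the cofactor of phenylalanine hydroxylase, was in both sets (0.54 ± 0.14 and -0.42 ± 0.14). Qdpr, which regenerates tetrahydrobiopterin, fell 1.45-fold with diet in wild type (-0.54 ± 0.11, adjusted p = 0.00113 by limma). All 3 calls were lost with median scaling, and the fall of Pcbd1 also without wild type chow replicate 2 or 3 or wild type western replicate 1 or 2.

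Of 7 tested genes of tryptophan breakdown 3 were higher in knockout on western diet and 0 lower, and 2 fell with diet in wild type. Afmid, the formamidase after the first oxidation step, was 2.07-fold higher in knockout on western diet (1.05 ± 0.13, adjusted p = 1.03e-05 by limma) and fell 1.67-fold with diet in wild type (-0.74 ± 0.13). Its interaction of 0.72 ± 0.18 passed (adjusted p = 0.0191 by limma) and was lost with median scaling. Kmo and Haao, later enzymes of the kynurenine route, were 1.41-fold and 1.37-fold higher in knockout on western diet, and Kynu, kynureninase, fell 1.41-fold with diet in wild type. The calls of Kmo and Kynu were lost with median scaling.

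Serine, glycine, threonine and alanine breakdown had 7 tested genes, of which 2 were higher in knockout on western diet, and 1 rose and 2 fell with diet in wild type. Agxt, the peroxisomal alanine-glyoxylate aminotransferase, fell 2.34-fold with diet in wild type (-1.23 ± 0.17, adjusted p = 3.42e-05 by limma) and was 1.57-fold higher in knockout on western diet (0.65 ± 0.17). Shmt1, cytosolic serine hydroxymethyltransferase, followed with -0.68 ± 0.16 and 0.75 ± 0.16. Agxt2, a mitochondrial aminotransferase, rose with western diet 1.60-fold in knockout and 1.55-fold in wild type. Median scaling ended the genotype call of Agxt and the diet call of Shmt1, and leaving out knockout western replicate 4 or knockout chow replicate 2 ended the genotype call of Agxt or the knockout call of Agxt2.

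Of 5 tested genes of proline and ornithine metabolism, Prodh2, hydroxyproline dehydrogenase, was 1.46-fold higher in knockout on western diet (0.55 ± 0.11) and fell 1.31-fold with diet in wild type (-0.39 ± 0.11). Its interaction of 0.71 ± 0.16 passed with an adjusted p of 0.00893 by limma. Aldh18a1, which acts in proline synthesis and not in breakdown, ran the other way, lower in knockout on western diet (-0.54 ± 0.15) and higher with diet in wild type (0.53 ± 0.15). Both of its calls were lost with the authors' processed values and without wild type western replicate 2 or 3, that for diet also without wild type chow replicate 2, and the fall of Prodh2 was lost with median scaling.

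In branched-chain amino acid breakdown 4 of 14 tested genes were higher in knockout on western diet and 0 lower. Of all genes 8.82% were higher there. Diet gave 3 higher and 1 lower in knockout, where 7.88% of all genes passed. In wild type diet gave 1 higher and 2 lower, where 29.6% passed. Acadsb, which oxidises the isoleucine product, rose 1.43-fold with diet in knockout (0.52 ± 0.10) and was 1.36-fold higher in knockout on western diet (0.44 ± 0.10). Bcat2, the branched-chain aminotransferase, fell with diet in wild type (-0.59 ± 0.12). Dbt, a subunit of the branched-chain keto acid dehydrogenase, fell 1.37-fold there (-0.46 ± 0.13), and Mccc1, of leucine breakdown, rose 1.46-fold. The wild type diet calls of Bcat2 and Dbt and the genotype call of Acadsb were lost with median scaling. That of Dbt was also lost without wild type chow replicate 4, and that of Mccc1 under 8 of the alternatives. Among the genes higher in knockout on western diet, Bcat2 was lost under 21 of the alternatives and Ppm1k under 4. The knockout diet calls of Mccc1 and Pcca, both higher, were lost under 7 and 5. In lysine breakdown 2 of 5 tested genes were higher in knockout on western diet, Pipox, a peroxisomal oxidase (0.79 ± 0.09, adjusted p = 4.73e-06 by limma), and Aass, the first enzyme (0.55 ± 0.13). Pipox also fell 1.66-fold with diet in wild type (-0.73 ± 0.09), and its interaction was 0.66 ± 0.13 (adjusted p = 0.00338 by limma). Median scaling ended that interaction call and the call of Aass.

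Amino acid transporters changed in both directions: of 10 tested, 3 rose and 4 fell with diet in wild type, and 2 rose in knockout, where 15.5% and 14.1% of all genes were higher and lower in wild type and 4.52% were higher in knockout. Slc1a2, a glutamate importer of hepatocytes near the central vein, fell 3.04-fold in wild type (-1.60 ± 0.15, adjusted p = 3.63e-07 by limma) and was 2.38-fold higher in knockout than in wild type on western diet (1.25 ± 0.15). Slc1a4, a neutral amino acid carrier, rose 1.86-fold with diet in knockout (0.90 ± 0.22) and 2.95-fold in wild type (1.56 ± 0.22). Slc38a2, a glutamine and alanine importer, fell 1.96-fold with diet in wild type (-0.97 ± 0.17). The rise of Slc1a4 in knockout was lost without knockout chow replicate 2 or 3 or knockout western replicate 1, and that of Slc3a2, a subunit of amino acid exchangers (0.62 ± 0.19, adjusted p = 0.0466 by limma), under 18 of the alternatives.

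Of 13 tested transcription factors and signals known to act on these genes, 5 were lower and 0 higher with western diet in wild type, where 14.1% of all genes were lower, and 2 were lower in knockout, where 3.36% were. Of the 2 in knockout, Hnf4a (-0.38 ± 0.11, adjusted p = 0.0451 by limma) was lost under 14 of the alternatives. The coactivator Ppargc1a, known from the fasting response, fell 1.81-fold in knockout (-0.85 ± 0.17, adjusted p = 0.00602) and also in wild type (-0.59 ± 0.17, adjusted p = 0.0140, both limma). Cebpb, a C/EBP protein, fell 1.73-fold in wild type (-0.79 ± 0.22), and Klf15, which is known to act on amino acid breakdown genes, fell 1.67-fold (-0.74 ± 0.20). The wild type calls of Klf15 and Ppargc1a were lost with median scaling, and that of Ppargc1a without wild type chow replicate 4. Between genotypes on western diet Nr1h4, the bile acid receptor FXR, was 1.30-fold higher in knockout (0.38 ± 0.12, adjusted p = 0.0344 by limma), a call lost under 9 of the alternatives. These are RNA levels, and the part of any of these factors in the members' differences was not tested.

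Genes known for their position along the liver lobule were listed as well. Of 11 tested periportal genes that are no member, 4 were higher and 2 lower in knockout on western diet. Of all genes 19.8% passed there. Diet gave 1 higher and 3 lower in wild type and 0 higher and 1 lower in knockout. In these 29.6% and 7.88% of all genes passed. On chow 1 was higher and 1 lower in knockout, where 0.836% of all genes passed. Cyp2f2, a periportal cytochrome P450, was lower in knockout on western diet (-1.38 ± 0.14) and on chow (-0.70 ± 0.14), the second a call lost under 5 of the alternatives. Hsd17b6, a hydroxysteroid dehydrogenase, was higher in knockout on western diet (0.96 ± 0.18) and on chow (0.85 ± 0.18), the second a call lost under 9. Pck1, the gluconeogenic enzyme induced by fasting, was 2.38-fold higher in knockout on western diet (1.25 ± 0.23) and fell 2.43-fold with diet in wild type (-1.28 ± 0.23). Of 13 tested pericentral genes 8 were higher and 0 lower in knockout on western diet, where 8.82% of all genes were higher. With median scaling this became 5 and 0. Diet gave 2 higher and 4 lower in wild type, where 15.5% and 14.1% of all genes were. Glul, Oat and Slc1a2 of this list also stand in a list above, as do Agxt, Gldc and Uroc1 of the periportal list. The lists are therefore not independent of each other.

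Macrophage transcripts also differed between groups. Of 16 tested macrophage and Kupffer cell markers, 15 were lower and 0 higher in knockout than in wild type on western diet. Of all 9095 genes tested 997 were lower there. With diet in wild type 15 were higher and 0 lower, where 15.5% of all genes were higher. In knockout 4 of 16 were higher with diet, where 4.52% of all genes were. This count was 0 without knockout chow replicate 3 and 1 without knockout chow replicate 1 or 2 or knockout western replicate 1, 2 or 4. Their mean log2 level per array was 7.34 to 7.74 in knockout and 8.82 to 9.76 in wild type on western diet, and 6.97 to 7.32 in knockout and 6.93 to 7.54 in wild type on chow. The wild type western arrays stood above all others without overlap. The defining markers Adgre1 and Clec4f were detected in all 16 arrays, Marco in 15, and Cd5l in 0. Of the other tested ones Trem2 was detected in 11, Gpnmb in 10, Mmp12 in 8, and the rest in all 16.

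Of 12 stellate cell and fibroblast markers 11 were tested. Of these, 6 were lower in knockout on western diet and 8 higher with diet in wild type. Col1a1 and Col3a1 were detected in 9 arrays, Pdgfrb in 8, Col1a2 and Timp1 in 7, and the other tested ones in all 16. Markers of every list entered the test once detected in 4 arrays. Some can thus have entered only through the group where they are high. Of all 9095 genes tested 997 were lower in knockout on western diet. With diet in wild type 15.5% of all genes were higher and 14.1% lower. These shares hold for the markers below as well. Their mean log2 level was 6.23 to 6.56 in knockout and 6.99 to 7.54 in wild type on western diet. Of 10 endothelial cell markers 3 were lower in knockout on western diet, and 3 were higher and 1 lower with diet in wild type. Of 8 neutrophil markers 4 were tested, and 2 of these were higher with diet in wild type. S100a8 and S100a9 were detected in all 16 arrays, Elane in 8 and Retnlg in 4. Of 7 lymphocyte markers 1 was lower in knockout on western diet. Of 3 red blood cell markers 1 was higher in knockout on western diet, where 8.82% of all genes were higher. With diet in knockout 2 were higher, where 4.52% of all genes were, with a median of 0.52 over the 3 markers. The 3 tested cholangiocyte markers passed in no comparison. The mean of 8 tested hepatocyte genes was 13.15 to 13.30 in knockout and 12.98 to 13.07 in wild type on western diet, and 13.14 to 13.24 in knockout and 13.03 to 13.16 in wild type on chow. With diet in wild type 2 of these 8 were lower, Hnf4a (-0.47 ± 0.11) and Serpina1a (-0.47 ± 0.12), and 0 were higher. In knockout 1 was lower with diet, where 3.36% of all genes were. On western diet 2 were higher in knockout than in wild type and 0 lower, where 8.82% of all genes were higher. The part of cell composition in the members' differences was not tested.

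**Figure D4:**
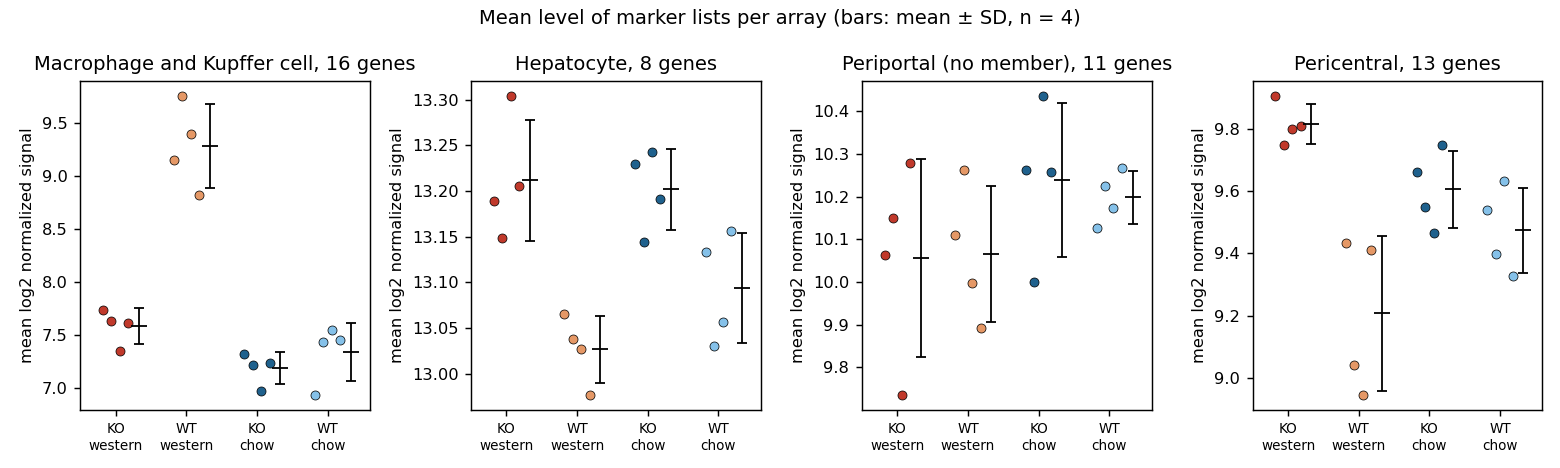
Mean log2 normalized signal per array over the tested genes of 4 lists, with 4 arrays per group as points and the mean ± SD (n = 4) as bars. The lists were chosen with earlier results of these data known. The macrophage mean lay at 8.82 to 9.76 in wild type western livers and at 6.93 to 7.74 in the other 12. The hepatocyte mean lay between 12.98 and 13.30 in all 16. It was 13.15 to 13.30 in knockout western and 12.98 to 13.07 in wild type western livers.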

How the data were processed

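The deposited table without normalization holds, per the file headers, a signal intensity for each of 25697 probes on 16 arrays, 1 array per individual mouse, and beside it a detection p-value. The submitters' processing notes name BeadStudio, whose version is not given in the sources used here. A second deposited table holds the authors' processed intensity values and served as an alternative.

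Signals were background-corrected and quantile-normalized with neqc of limma 3.58.1 in R 4.3.3 (offset 16, negative controls inferred from the detection p). Probes had to reach a detection p under 0.05 on 4 or more arrays (13196 did), were named by the platform annotation (1 symbol for 23978 probes, none for 1719), and the one with the highest mean stood for its gene, which gave 9095 genes. All 16 arrays entered 1 linear model of 4 group means (lmFit, eBayes with a trend). Pairwise comparisons and the diet by genotype interaction (the knockout diet effect less the wild type one) were tested two-sided.

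Named genes were the members, Nr0b2, up to 3 passed genes per list and comparison with the largest changes, and the 2 genes most like each member that passed. Marker genes named singly were chosen after their values were seen. The members and lists were chosen with earlier results of these data known. On simulated arrays for 9095 genes the fit recovered 42 to 54% of changes of 0.5 and 94 to 99% of changes of 1 (log2) in the pairwise comparisons, and 10% and 75% in the interaction. Each simulation changed 100 genes at each size, with independent noise, and gave 5 to 14 false calls. The real comparisons had other numbers of calls, so these shares need not hold for them. Alternatives covered background, scaling, filters, probe choice, array weights, a replicate block and leaving out each array. The sample labels used here do not give the slide of each array, so a slide effect could not be fitted. Whether slides lined up with the groups is not known. Python 3.11.15 with matplotlib 3.10.9 drew the plots.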

Additional observations from a re-analysis of the deposited data

Results flagged for a closer look

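Hpd held both of the lone arrays among the 28 groups of 4 examined in the 7 tested members, a check that chance alone trips in about 1 of 20 groups. Wild type western replicate 4 had a log2 level of 11.63, with the nearest of its group at 11.52 (gap over range 0.967), and wild type chow replicate 3 had 12.11, with the nearest at 12.50 (gap over range 0.848).

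Among the members and the genes that the naming rule took from the pathway lists, the diet effect differed between genotypes by limma's interaction test for 8. The rule names pathway genes only once they have passed, so this number does not show how common such genes are. Of all genes 7.05% passed this test. Marker lists of other cell types were counted apart. Of these, 10 of 16 macrophage and 5 of 11 stellate cell markers passed it in the negative direction, where 4.76% of all genes did. The knockout diet effect less the wild type one was 0.95 for Hpd, 0.72 for Afmid, 0.84 for Agxt, 0.71 for Prodh2, 0.53 for Acadsb, 0.66 for Pipox and 1.34 for Slc1a2 on the log2 scale. It was -0.66 for Gpt2. The calls of Agxt and Gpt2 were lost under 16 alternatives each and that of Acadsb under 10. Those of Afmid and Pipox were lost with median scaling.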

How the results depend on the processing

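The counts of members that passed were the same under every alternative run in 4 of the 5 comparisons. In the fifth, western diet against chow in knockout, the count of 2 became 1 with median scaling and 3 with array weights (Cps1 -0.51, adjusted p = 0.0312 by limma), and it ranged from 2 to 3 when single arrays were left out. Among all genes, knockout against wild type on chow gave 76 calls, 124 with array weights, 48 with the authors' processed values, and 49 to 108 without single arrays, the lowest without wild type chow replicate 3. Western diet against chow in knockout gave 717, 347 with median scaling, and 362 to 752 without single arrays, the lowest without knockout chow replicate 2. The causes of these shifts were not tested.

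Median scaling moved the median of all genes to -0.16 and -0.06 for knockout against wild type on western diet and chow, to 0.05 and 0.14 for western diet against chow in knockout and wild type, and to -0.11 for the interaction. Its calls split into 208 higher and 1691 lower for the genotypes on western diet (802 and 997 with quantile normalization), and 21 and 39 on chow (40 and 36). For diet they were 297 and 50 in knockout (411 and 306) and 2082 and 290 in wild type (1407 and 1286), and for the interaction 75 and 503 (208 and 433).

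The differences that changed sign had all missed the threshold. With median scaling these were, for the genotypes on western diet, Asl (-0.0047), Cps1 (0.030) and Otc (-0.048), for the genotypes on chow Hal (-0.050), and for diet Ass1 in knockout (0.035) and Otc in wild type (0.12). Without single arrays Cps1 ranged from -0.18 to 0.096 and Hal from -0.26 to 0.11 for the genotypes on western diet, Hal from -0.053 to 0.19 on chow and from -0.34 to 0.032 in the interaction, and Hpd from -0.049 to 0.14 for diet in knockout.

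Groups share replicate numbers, but same-numbered arrays did not deviate together (correlations from -0.17 to 0.19), so the numbers were not treated as pairs. With the replicate block the members' counts were the same and all genes gave 1738 and 70 calls for the genotypes on western diet and chow, 682 and 2672 for diet in knockout and wild type, and 614 for the interaction. Slide was not run as a term, since the sample labels used here do not give it.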
